A study of Mus musculus with 24 samples.

Results

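These results follow the wild-type (WT) cortex of the mouse embryo from embryonic day 13.5 (E13.5) to E15.5. They compare 3 libraries labelled WT E15.5 with 3 labelled WT E13.5, out of 24 libraries in the series. A gene entered if at least 3 of these 6 libraries held a normalized read count of 10 or more, which left 16100 of 22529 genes. The series is described as sampling the ventricular zone of the cortex. It used WT embryos and embryos with a conditional knockout (cKO) of the zinc-finger regulator Prdm16. Stages ran from E11.5 to E17.5 in steps of 2 days, with libraries A, B and C in each group. All embryos are labelled C57BL/6, and the WT groups carry no transgene or treatment in the labels. PolyA-selected total RNA was sequenced with a stranded kit. The labels mention pairs of embryos without defining a pair or giving the number of embryos behind a library. The p-values thus measure only a spread between libraries, pooled within groups over all 24 of the series, which may be in part technical.

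The ventricular zone lines the lateral ventricle and holds radial glia, the neural stem cells of the cortex. Radial glia divide at the ventricle and give rise, directly or through intermediate progenitors, to glutamatergic neurons that migrate outward. Neurons of the deep layers are born earlier and those of the upper layers later, and radial glia change their gene expression and their output as they age. GABAergic interneurons come from the ventral forebrain and migrate into the cortex, and Cajal-Retzius cells arise at its edges and settle under the meninges. Microglia, vessels and blood add further RNA to dissected tissue. Neuronal RNA was abundant in these libraries. Dcx, of migrating neurons, averaged 66380 normalized reads at E15.5 and 32588 at E13.5, and Tbr1, of layer 6 neurons, 16715 and 13153. Pax6, of radial glia, averaged 3921 and 9029. The results below are thus not those of the ventricular zone alone, and the share of neurons in each library was not tested. In bulk RNA, fewer cells of a type and less RNA per cell cannot be told apart.

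Some properties of the libraries bear on every result. E15.5 libraries B and C carried skin keratin reads. Krt5, an epidermal keratin, read 1.95, 6658 and 3311 in E15.5 libraries A, B and C, against 0.961, 2.83 and 0.939 in E13.5 libraries A, B and C, and Krt14 read 0.977, 2301 and 1088 against 0, 0 and 0. E15.5 library C was close to a weighted sum of 49.2% of A and 49.5% of B, with a median squared residual of 0.572, where counting noise alone gives 0.455, so C may not be a separate sample. No E13.5 library could be described that way, with residuals of at least 3.22. In all, 5 C libraries of the series lie near such sums, those of both genotypes at E11.5 and E15.5 and that of cKO at E13.5. Counts for the gene lists are therefore also given with library A alone for E15.5, where its spread is taken from the other groups, and without these 5 libraries. The column names of WT E13.5 carry a 2 that those of WT E15.5, WT E11.5 and cKO lack. No label explains it. Anything it marks cannot be told apart from stage, or from the differences between intervals and between genotypes given below. Transcripts of the mitochondrial genome made up 1.54%, 1.64% and 1.57% of reads at E15.5 and 1.13%, 1.10% and 0.988% at E13.5. All 6 libraries held Y-linked reads and few from Xist, the RNA of the inactive X chromosome. Ddx3y read 2226 to 2425 at E15.5 and 2001 to 2575 at E13.5, and Xist stayed under 14 in each library. Depth was 33864039 to 38879931 recovered reads. Of the cortical markers, Emx1, the dorsal homeobox factor, read 1945, 1646 and 1809.6 at E15.5 and 3521, 3488 and 2639 at E13.5.

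Values throughout are normalized reads, in the order of libraries A, B and C. A fold change is log2 of E15.5 over E13.5 on value + 1, given with its SE, and the adjusted p comes from limma over all 16100 genes with a threshold of 0.05. A gene is said to rise or fall where it passed that threshold. At E15.5, 4029 genes were higher and 3893 lower than at E13.5, so 49.2% of the genes tested passed, 25.0% higher and 24.2% lower. The counts of the gene lists below stand against these shares. The median log2 fold change over all genes was -0.0028. In 10294 genes (63.9%) no E15.5 library overlapped an E13.5 library. At least 2-fold changes numbered 1647 higher and 1185 lower. With library A alone for E15.5, 6047 genes passed (37.6%, 19.2% higher and 18.4% lower), and 3039 of the higher and 2576 of the lower genes passed again in the same direction, 18.9% and 16.0% of all genes. No gene called in both fits changed direction between them. Without the 5 C libraries 5917 genes passed (36.8%, 18.9% higher and 17.8% lower), 5907 of them also called with every library. The filter let in 192 genes that reached 10 in every E15.5 library and in no E13.5 library, and 127 of the opposite kind. These could hardly fail to differ, and 171 and 105 of them were called. At the edge of the filter, the third highest value of Gabrg1 was 10.3, just inside, and that of Spint1 was 9.77, just outside.

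**Figure D1:**
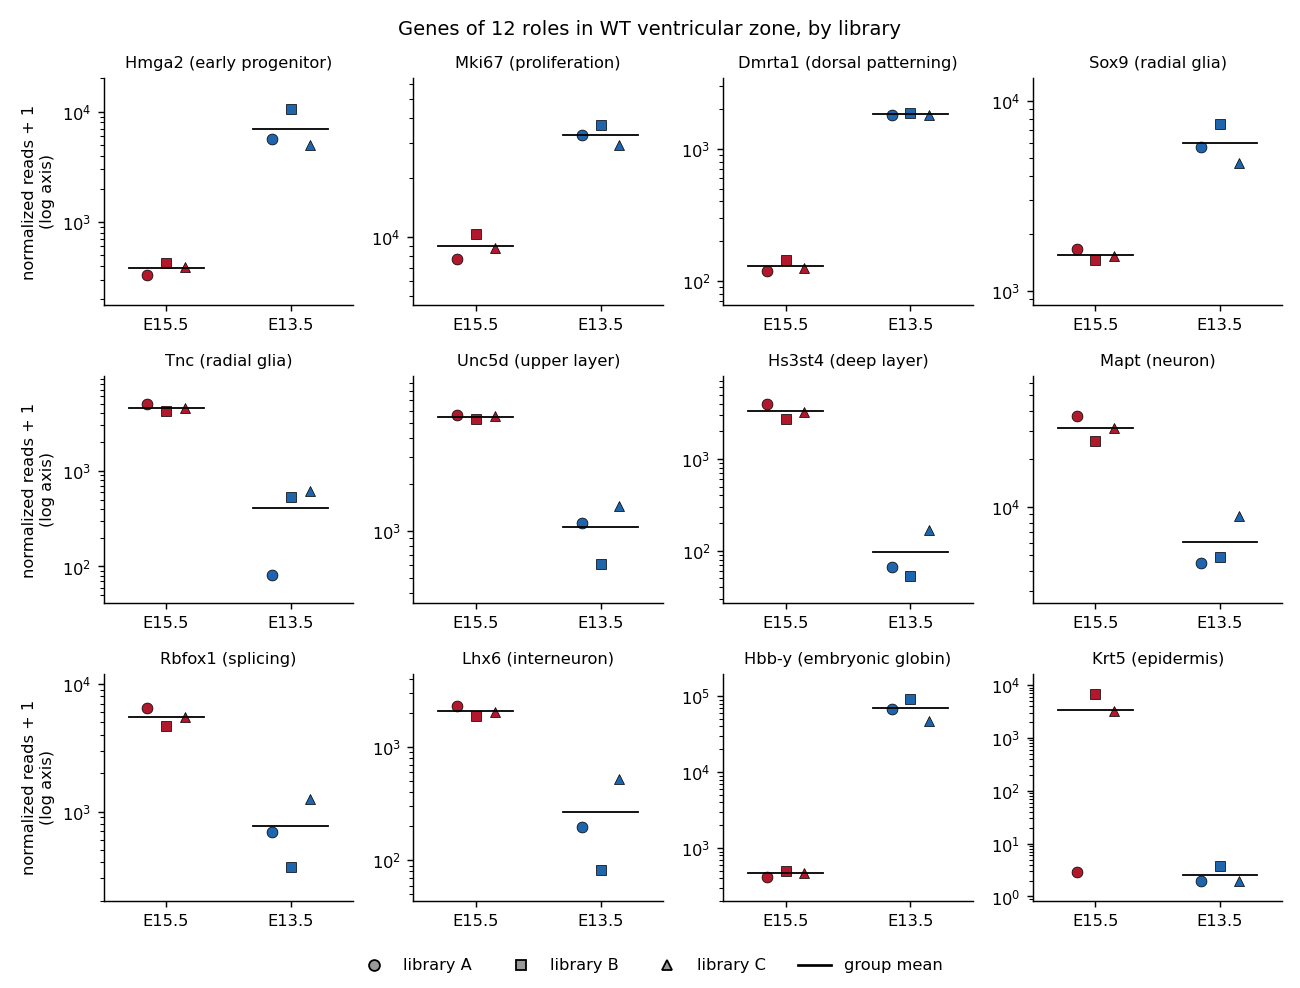
Normalized reads plus 1 on log axes for 12 genes of different roles, with E15.5 in red and E13.5 in blue. Points are libraries A, B and C and lines are group means. The groups do not overlap in 11 panels, which holds for 63.9% of all genes tested. In the Krt5 panel E15.5 library A, at 1.95, lies within the range of the E13.5 libraries.

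Genes of the cell division machinery fell together. All 32 S-phase and replication genes tested were lower at E15.5, with a median log2 fold change of -1.41, and all 30 genes of G2 and mitosis were lower, with a median of -1.51. Every one of these calls was made again with library A alone and again without the 5 C libraries. The background, as above, is 24.2% of all genes lower and a median of -0.0028. Mki67, the proliferation antigen that coats mitotic chromosomes, read 7777, 10380.3 and 8788 at E15.5 and 33146, 36935 and 29238 at E13.5 (log2 fold change -1.89 ± 0.25, adjusted p = 3.1e-06). The highest E15.5 library lay far below the lowest E13.5 library. Plk1, a kinase that drives entry into and exit from mitosis, read 1209, 1385 and 1350.1 against 4700.3, 4632 and 3918 (log2 fold change -1.75 ± 0.13), and Cenpe, a kinetochore motor, read 2164, 2593 and 2381 against 8871, 9880.4 and 7746 (log2 fold change -1.89 ± 0.21). Among replication genes, Cdt1, which licenses replication origins, had the lowest fold change, at 491, 592 and 515 in the E15.5 libraries and 2535, 2662 and 1801 in the E13.5 libraries (log2 fold change -2.11 ± 0.21, adjusted p = 8.1e-08). Cdc6, its partner at the origin, read 462, 536 and 489 against 1868, 2057 and 1657 (log2 fold change -1.90 ± 0.10), and Mcm10, which helps start the replication fork, read 603, 792 and 727 against 2765, 2979 and 2355 (log2 fold change -1.93 ± 0.11). Uhrf1, which brings the maintenance methyltransferase to newly copied DNA, read 3003, 3449.8 and 3189 against 12171, 13321 and 10081 (log2 fold change -1.88 ± 0.13). The smallest fall among the 32 replication genes was -0.57 and the smallest among the 30 mitotic genes -1.14.

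Promoter letters known from cell cycle genes were counted in both lists, and promoters are shown because the lists moved as a block. RefSeq promoters on GRCm38.p6, from 250 bases before to 50 bases after the start, were held for 24 of the 30 mitotic and 26 of the 32 replication genes. The letters TTTGAA on either strand, the cell cycle homology element known from late cell cycle promoters, stood in 19 of 24 mitotic promoters (79.2%), in 3 of 26 replication promoters (11.5%) and in 14% of the 11186 promoters of tested genes. The E2F letters TTTCCCGC, TTTCGCGC, TTTGCCGC and TTTGGCGC on either strand stood in 10 of 26 replication promoters (38.5%), in 1 of 24 mitotic promoters (4.17%) and in 4.51% of all. Matches on the opposite strand may overlap, as in Mcm6, where a match on each strand shares bases with the other. The 150 bases before the start follow for 2 genes of each list, 5′ to 3′ on the gene's strand, with the matched letters in capitals. Mki67 is at chr7:135716380-135716529 (minus strand), Cdc20 at chr4:118437344-118437493 (minus), Mcm6 at chr1:128359706-128359855 (minus) and Cdc6 at chr11:98908001-98908150 (plus). The start meant here is that of RefSeq. In GENCODE M21 Cdc6 begins at 98907801, so its stretch lies within that gene model, and Cdc20 begins at 118437352, inside its stretch.
Mki67: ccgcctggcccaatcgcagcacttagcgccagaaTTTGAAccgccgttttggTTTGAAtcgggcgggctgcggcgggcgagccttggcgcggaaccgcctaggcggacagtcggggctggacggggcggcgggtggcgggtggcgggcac
Cdc20: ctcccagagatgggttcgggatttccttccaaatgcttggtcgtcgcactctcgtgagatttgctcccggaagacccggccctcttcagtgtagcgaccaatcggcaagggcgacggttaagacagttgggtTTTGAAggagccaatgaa
Mcm6: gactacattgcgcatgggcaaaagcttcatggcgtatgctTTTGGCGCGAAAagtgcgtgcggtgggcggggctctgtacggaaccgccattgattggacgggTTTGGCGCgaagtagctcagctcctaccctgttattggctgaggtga
Cdc6: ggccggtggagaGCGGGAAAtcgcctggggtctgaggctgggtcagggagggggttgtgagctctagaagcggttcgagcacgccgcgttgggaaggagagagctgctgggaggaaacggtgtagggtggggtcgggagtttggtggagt
In these stretches Mki67 and Cdc20 carry the mitotic letters and Mcm6 and Cdc6 the E2F letters. Cdc20, the activator of the anaphase-promoting complex, read 2019, 2256 and 2192 at E15.5 and 6282, 6006 and 5245 at E13.5 (log2 fold change -1.44 ± 0.14). Mcm6, a subunit of the replicative helicase, read 4029, 4466 and 4136 against 11539.7, 12468 and 10503 (log2 fold change -1.45 ± 0.08). Among all called genes with a promoter, the E2F letters stood in 3.15% of those higher and 7.51% of those lower at E15.5, and TTTGAA in 13.3% and 16.2%. A match is a run of letters and was not tested as a binding site.

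Of 11 D cyclins and cyclin-dependent kinase inhibitors, 1 rose and 6 fell. The rise and 4 of the falls were called again with library A alone, and 1 gene was higher and 5 lower without the 5 C libraries. Ccnd2, the D cyclin that marks cortical progenitors and is carried into their basal process, read 20351, 19095 and 19749 at E15.5 and 97234, 92830.4 and 85532 at E13.5 (log2 fold change -2.22 ± 0.15, adjusted p = 6.7e-10). Ccnd1 read 1239.7, 2141 and 1741 against 6818, 9152 and 6547 (log2 fold change -2.15 ± 0.20), with library A the lowest of all 6. Ccnd3 read 701, 1210.1 and 993 against 1892, 2425 and 1266 (log2 fold change -0.93 ± 0.24). Its lowest E13.5 library, C, lay just above the highest E15.5 library, B.

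The factors that mark early cortical progenitors fell, and Hmga2 fell furthest. Of 9 tested genes of the Lin28 and let-7 axis and its partners, 6 were lower and none was higher, with a median of -1.06, and all 6 calls held with library A alone and without the 5 C libraries. Hmga2, an architectural chromatin protein of young neural stem cells, read 331, 424 and 386 at E15.5 and 5599.8, 10529.6 and 4977 at E13.5 (log2 fold change -4.13 ± 0.34, adjusted p = 7.0e-09). It was already lower at E13.5 than at E11.5, where it read 36194, 28816 and 31384. Lin28b, the RNA-binding protein that blocks maturation of let-7 microRNAs, read 84.0, 105 and 89.5 against 229.7, 417 and 278 (log2 fold change -1.68 ± 0.26, adjusted p = 2.6e-05). Its relative Lin28a was not tested, at 0.977, 0 and 0 against 0.961, 8.49 and 0. The RNA-binding proteins Igf2bp1 and Igf2bp2 read 2967, 3136 and 2937 against 8023, 9301 and 7435 (log2 fold change -1.45 ± 0.11) and 3172, 3279 and 3087 against 7935, 9468 and 7416 (log2 fold change -1.37 ± 0.13), and Igf2bp3 and Hmga1 also fell (log2 fold change -1.06 ± 0.20 and log2 fold change -0.98 ± 0.19). Trim71, Mycn and Nr6a1 did not pass with every library, with log2 fold changes of -0.86, 0.018 and 0.056. With library A alone these were -1.77, 0.28 and 0.11. Trim71 was low, with 44 reads in all at E15.5 and 73 at E13.5. Mycn, a driver of proliferation, read 4994, 3502 and 4106 at E15.5 and 4706, 4568 and 3220.4 at E13.5, so its libraries overlapped.

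The let-7 microRNAs themselves were not measured. Their sequences are shown because let-7 is known to bind the transcripts of this list, several members of which are on it for that reason. The mature RefSeq sequences of 3 family members share the seed, bases 2 to 8, given in capitals. They lie at chr13:48538239-48538260 (let-7a-1), chr15:85707325-85707346 (let-7b) and chr10:122985698-122985719 (let-7i) on GRCm38.p6.
mmu-let-7a-5p: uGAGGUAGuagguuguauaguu
mmu-let-7b-5p: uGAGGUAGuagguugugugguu
mmu-let-7i-5p: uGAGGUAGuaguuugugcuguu
The complement of that seed, CTACCTC, stood in the 3′ UTR of 8 of the 9 genes (88.9%), against 1693 of 13912 tested genes (12.2%) in the longest GENCODE M21 3′ UTR of each. The 9 genes have longer 3′ UTRs, with a median of 3014 bases against 1417, and a longer sequence holds any match more often. The first match in 3 of the genes that fell is shown with its flanks, capitals marking CTACCTC, on GRCm38 and on the gene's strand, which is minus for all 3. The Hmga2 site is at chr10:120364222-120364243, that of Lin28b at chr10:45381020-45381041 and that of Igf2bp1 at chr11:95961776-95961797.
Hmga2: gacattcaatttCTACCTCagc
Lin28b: cgggcgggaagtCTACCTCatg
Igf2bp1: gtgcgaagtaaaCTACCTCaag
Hmga2, Lin28b, Igf2bp1 and Trim71 each had 4 matches, and Hmga1, Igf2bp2 and Igf2bp3 had 1. Nr6a1 had 8 and did not pass, at 258, 243 and 245 at E15.5 and 202, 289.7 and 234 at E13.5 (adjusted p = 0.77), and Mycn, with none, did not pass either. No relation between matches and fold changes was tested over these 9 genes.

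Radial glia genes mostly fell, with a prominent exception. Of 21 tested, 4 rose and 12 fell, with a median of -0.78. These counts and those of the gliogenic factors below stand against 25.0% of all genes higher and 24.2% lower. With library A alone 3 of the rises and 11 of the falls were called again, and without the 5 C libraries 2 genes were higher and 11 lower. Pax6, which specifies dorsal radial glia, read 4124, 3850.3 and 3791 at E15.5 and 8696, 10317 and 8073 at E13.5 (log2 fold change -1.20 ± 0.09, adjusted p = 1.8e-09), and Sox2, which maintains the progenitor state, read 2461, 2281 and 2347 against 6697, 8943 and 6277 (log2 fold change -1.61 ± 0.20). Vim, the intermediate filament of radial fibres, read 16854, 20692 and 18384 against 32893, 38262 and 33445 (log2 fold change -0.90 ± 0.17). Against this, Tnc, an extracellular matrix glycoprotein that in the human cortex marks outer radial glia, read 4912, 4224 and 4476 at E15.5 and 79.8, 531 and 607 at E13.5 (log2 fold change 3.93 ± 0.77, adjusted p = 2.6e-04). The E13.5 libraries differed among themselves more than the E15.5 ones did, since A read far below B and C. Fam107a, another marker of human outer radial glia, went the opposite way at low levels, at 21.5, 20.3 and 16.3 against 109.6, 87.8 and 75.1 (log2 fold change -2.16 ± 0.22). Among gliogenic factors 2 rose, 2 fell and 6 did not pass, with the same counts called again with library A alone and the same counts without the 5 C libraries. Nfix and Nfib, nuclear factor I proteins of ageing progenitors and neurons, read 42991, 35017 and 38648 against 16266, 8558 and 13238 (log2 fold change 1.66 ± 0.33) and 64402, 53354 and 58194 against 36484, 27607 and 35892 (log2 fold change 0.82 ± 0.19). Sox9, a stem cell and glial fate factor, read 1664, 1451 and 1528 against 5728, 7549 and 4713 (log2 fold change -1.93 ± 0.13, adjusted p = 9.1e-10), and Sox21, which opposes SOX2-type activity, also fell (log2 fold change -1.26 ± 0.18). Nfia, of the same family as Nfix and Nfib, did not pass (log2 fold change 0.18 ± 0.12, adjusted p = 0.24).

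NOTCH signalling holds radial glia in the progenitor state. Of 20 tested pathway genes 15 were lower at E15.5, 2 were higher and 3 did not pass. Their median was -0.82 with every library and -1.01 with library A alone. Library A alone gave 1 of the rises and 14 of the falls again, and 2 genes were higher and 14 lower without the 5 C libraries. The effector Hes5 read 399, 367 and 375 at E15.5 and 1938, 3215 and 1429 at E13.5 (log2 fold change -2.44 ± 0.25, adjusted p = 1.3e-07), and Hes1 read 382, 556 and 476 against 1685, 2322 and 1117 (log2 fold change -1.81 ± 0.19). The receptor Notch3 read 1554, 2016 and 1738 against 6783, 7370.4 and 5299 (log2 fold change -1.87 ± 0.23), and the effector Hey1 read 1126, 1079 and 1097 against 4251, 3876 and 3156 (log2 fold change -1.76 ± 0.16). Notch3 is also a gene of pericytes. Of 12 tested pericyte and smooth muscle genes 2 were higher, 1 lower and 9 not past the threshold. Of all genes, 25.0% were higher and 24.2% lower. The part of pericytes and smooth muscle in the Notch3 change was not tested. The ligands, presented by differentiating cells, fell too. Dll1 read 1682, 1443 and 1554 against 5263, 4634 and 3978 (log2 fold change -1.56 ± 0.15), and Dll3, a ligand that acts within the cell, read 309, 270.2 and 313 against 797, 750.2 and 859 (log2 fold change -1.43 ± 0.13).

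Of 16 proneural and intermediate progenitor genes 2 rose and 9 fell (median -0.58), and both rises and 8 of the falls were called again with library A alone. Neurog1, a proneural factor of early cortical neurogenesis, read 171, 156 and 136 at E15.5 and 876, 827 and 669.6 at E13.5 (log2 fold change -2.35 ± 0.34, adjusted p = 9.7e-06), and Neurog2 read 5597, 4452 and 4993 against 10873, 12576 and 8989.6 (log2 fold change -1.10 ± 0.20). Eomes, the factor that defines intermediate progenitors, read 10533, 8945 and 9657 against 14851, 12588 and 14715 (log2 fold change -0.53 ± 0.10, adjusted p = 1.9e-04). Insm1, which promotes the formation of those progenitors, was the exception at 7827, 5895 and 6584 against 4764, 4003 and 4812 (log2 fold change 0.58 ± 0.20, adjusted p = 0.019). Without the 5 C libraries neither of the 2 rises was called, and 9 genes were lower. Gadd45g, expressed as progenitors leave the cycle, read 926, 854 and 867 against 2249, 1588 and 1995 (log2 fold change -1.13 ± 0.26).

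**Figure D2:**
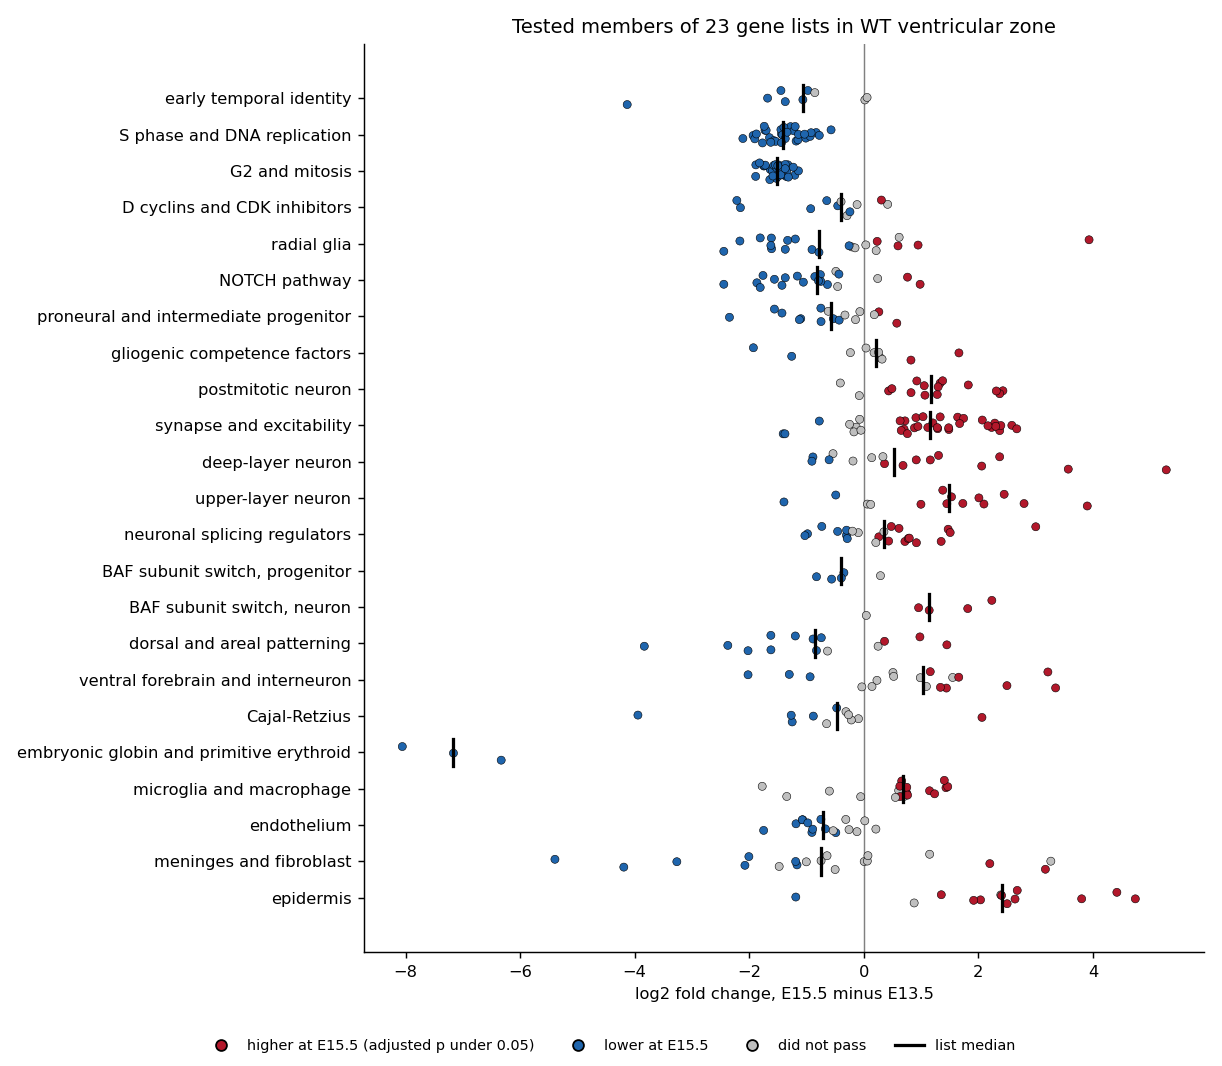
Log2 fold change, E15.5 minus E13.5, of every tested member of 23 lists. Red points passed as higher, blue as lower and grey did not pass, and the bar is the list median. All members of the S-phase and mitosis lists lie left of 0, while most of the epidermis list lies to the right with all E15.5 libraries included.

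Genes of postmitotic neurons rose. Of 16 tested, 14 rose, none fell and 2 did not pass, against 25.0% of all genes higher. The median was 1.17, and all 14 were called again with library A alone, while 13 genes were higher without the 5 C libraries. Mapt, the axonal microtubule protein tau, read 36969, 26002 and 31073 at E15.5 and 4444, 4878 and 8837 at E13.5 (log2 fold change 2.43 ± 0.24, adjusted p = 8.9e-08). Snap25, a SNARE protein of vesicle release, read 6525, 5115 and 5727 against 967, 937 and 1517 (log2 fold change 2.37 ± 0.20). Myt1l, a repressor of non-neuronal genes, read 15012, 12469 and 13799.9 against 2425, 1983 and 4375 (log2 fold change 2.31 ± 0.24), and Stmn2, a growth cone protein, read 26205, 19949 and 22738 against 5264, 5964 and 8536 (log2 fold change 1.82 ± 0.18). Dcx, the microtubule protein of migrating neurons, rose less, at 71907, 60850.0 and 66384 against 27542, 25844 and 44376 (log2 fold change 1.07 ± 0.19). Within E13.5, library C was the highest for each of these genes, and within E15.5 library A was, so the groups stayed apart but neither was uniform.

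Of 36 synaptic and excitability genes 28 rose, 3 fell and 5 did not pass (median 1.16), where 25.0% of all genes rose. All 28 rises and 2 of the falls were called again with library A alone, and 27 genes were higher and 3 lower without the 5 C libraries. Camk2b, a calcium-dependent kinase subunit of synapses, read 6107, 3914 and 4985 at E15.5 and 737, 527 and 1184 at E13.5 (log2 fold change 2.67 ± 0.34, adjusted p = 1.7e-06). Grin2b, the NMDA receptor subunit of immature synapses, read 6568, 6002 and 6449 against 866, 705 and 1928 (log2 fold change 2.58 ± 0.57), and Gria1, an AMPA receptor subunit, read 3708, 3321 and 3520.3 against 626, 380.3 and 1256 (log2 fold change 2.39 ± 0.35). Of 30 guidance and migration genes 11 were higher, 5 lower and 14 not past the threshold (median 0.12), against 24.2% of all genes lower. Only 2 of these falls and 9 of the rises were called again with library A alone, and 9 genes were higher and 3 lower without the 5 C libraries. Cntn2, an axonal adhesion protein, read 67517, 62063 and 64236 against 16772, 9189.7 and 29058 (log2 fold change 1.97 ± 0.28). Robo1, a SLIT receptor, read 11540.2, 9527 and 10613 against 3028, 3290.3 and 4477 (log2 fold change 1.57 ± 0.35), and Nrp1, a semaphorin receptor, read 10389, 9876 and 10076 against 4248, 3189 and 3885 (log2 fold change 1.43 ± 0.16). Robo3, a relative of Robo1 that lets axons cross the midline, went the other way. Robo3 read 24.4, 8.68 and 18.9 at E15.5 and 2229.5, 2762 and 2263 at E13.5 (log2 fold change -7.15 ± 0.32, adjusted p = 1.0e-11), the third lowest fold change among genes named by rank.

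Both deep- and upper-layer genes rose, each with exceptions. Of 16 deep-layer genes 9 rose, 3 fell and 4 did not pass (median 0.52). With library A alone 7 of the rises and none of the falls were called again, and without the 5 C libraries 6 genes were higher and 1 lower. Hs3st4, a heparan sulfate sulfotransferase of layer 6, read 3988, 2697 and 3251 at E15.5 and 65.3, 51.9 and 169 at E13.5 (log2 fold change 5.28 ± 0.46, adjusted p = 1.6e-08). Nfe2l3, a leucine zipper factor used as a deep-layer marker, read 1522, 1115 and 1282 against 120.1, 68.9 and 153 (log2 fold change 3.57 ± 0.27), and Ldb2, a LIM-domain partner of corticospinal neurons, read 2824, 2384 and 2599 against 361, 455 and 764 (log2 fold change 2.37 ± 0.24). Sox5, which times deep-layer identity, read 19542, 18013 and 18826 against 7417, 5589.9 and 10616 (log2 fold change 1.304 ± 0.20). The factors that specify these layers moved less. Fezf2, required for subcerebral neurons, read 6869.6, 5829 and 6363 against 3762, 2727 and 3704 (log2 fold change 0.91 ± 0.15), and Tbr1, the layer 6 factor, read 18408, 15207 and 16530.2 against 11271, 11866 and 16322 (log2 fold change 0.36 ± 0.14, adjusted p = 0.037), a call that was not made with library A alone (adjusted p = 0.056). Bcl11b, the subcerebral factor also called Ctip2, did not pass, at 14046, 12304 and 12902 against 10031, 7895 and 14077 (adjusted p = 0.13). Of 14 upper-layer genes 10 rose, 2 fell and 2 did not pass (median 1.49), and all 12 calls held with library A alone and without the 5 C libraries. Unc5d, a netrin receptor of multipolar and upper-layer cells, read 5589.9, 5269 and 5525 at E15.5 and 1134, 608 and 1443 at E13.5 (log2 fold change 2.45 ± 0.29, adjusted p = 7.8e-07). Cux2 and the POU factors Pou3f2 and Pou3f1 rose, with log2 fold changes of 1.53, 1.38 and 2.10. Inhba, an activin subunit, read 142, 201 and 151 against 10.6, 4.72 and 18.8 (log2 fold change 3.90 ± 0.51), so it was near the filter's minimum at E13.5.

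Splicing regulators and chromatin subunits that differ between progenitors and neurons moved in both directions. Of 23 genes listed as neuronal splicing regulators 12 rose and 7 fell, against 25.0% of all genes higher and 24.2% lower. The list includes Rest, a repressor of transcription, whose fold change was the lowest of the list. Called again with library A alone were 11 of the rises and 4 of the falls, and 8 genes were higher and 5 lower without the 5 C libraries. Rbfox1 read 6413, 4656 and 5517 at E15.5 and 695, 365 and 1258 at E13.5 (log2 fold change 3.002 ± 0.35, adjusted p = 5.6e-07), and Celf5 read 8450.2, 7062 and 7436 against 2795, 2490.2 and 3848 (log2 fold change 1.35 ± 0.13). Ptbp1, which represses neuronal exons in progenitors, read 6029, 7274 and 6486 against 14199, 13332 and 11619 (log2 fold change -0.98 ± 0.12, adjusted p = 8.1e-07), and Rest, which represses neuronal genes there, read 901, 1148 and 1025 against 2053, 2429 and 1808 (log2 fold change -1.03 ± 0.12). BAF is the SWI/SNF chromatin remodeller, and it exchanges subunits when neurons leave the cycle. Of 5 progenitor subunits 4 fell and none rose, and of 5 neuronal subunits 4 rose and none fell, with every one of these 8 calls made again with library A alone and the same counts without the 5 C libraries. Actl6a, the progenitor actin-related subunit, read 2597, 2487 and 2563 against 4800.2, 4430.2 and 4339.8 (log2 fold change -0.83 ± 0.09), and Actl6b, its neuronal counterpart, read 4552, 3641 and 3976 against 971, 956 and 1631 (log2 fold change 1.81 ± 0.20). Ss18l1, the neuronal partner also called CREST, read 4953, 4092 and 4333 against 1778, 1863 and 2470.0 (log2 fold change 1.14 ± 0.10), while Ss18, the progenitor form, changed by -0.39 (log2). The neuronal Dpf1 and Dpf3 had log2 fold changes of 0.96 and 2.23, and the progenitor subunits Dpf2 and Phf10 of -0.56 and -0.35. Among 22 other chromatin and DNA methylation genes 5 rose and 12 fell. Of these, 3 rises and 9 falls were called again with library A alone, and 3 genes were higher and 11 lower without the 5 C libraries. Chd7, a remodeller of neural progenitors, read 2481, 2718 and 2529 against 11276, 12641 and 9088 (log2 fold change -2.08 ± 0.28), Dnmt3a, a de novo methyltransferase, read 3943, 4480.4 and 4179 against 10519, 11894 and 9833 (log2 fold change -1.35 ± 0.15), and Chd5, a neuronal remodeller, rose (log2 fold change 1.08 ± 0.29).

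Factors that pattern the dorsal telencephalon and its areas fell, in 9 of 14 cases, with 3 higher and 2 not past the threshold (median -0.86). In the fit with library A alone 2 of the rises and 7 of the falls were called again, and 2 genes were higher and 7 lower without the 5 C libraries. Dmrta1, a doublesex-related factor of the dorsomedial cortex, read 118, 142 and 124 at E15.5 and 1813, 1869 and 1813 at E13.5 (log2 fold change -3.83 ± 0.17, adjusted p = 6.8e-12). Its E13.5 libraries were nearly equal, and every E15.5 library was far lower. Dmrt3, of the same family, read 154, 196 and 170.4 against 1149, 911 and 697 (log2 fold change -2.38 ± 0.29). Emx2, the caudomedial area factor, read 1458, 1350.0 and 1348 against 4468, 5399 and 3220.4 (log2 fold change -1.62 ± 0.19), and Sp8, a rostral area factor, read 222, 185 and 199 against 776, 1039 and 687 (log2 fold change -2.02 ± 0.18). Msx1, a BMP target of the dorsal midline, read 0.977, 4.82 and 0.861 at E15.5 and 198, 219.9 and 109.9 at E13.5 (log2 fold change -5.93 ± 0.62, adjusted p = 1.6e-07). Of 10 hem and WNT ligand genes 3 rose, 3 fell and 4 did not pass. Library A alone gave 2 of these rises and all 3 falls again, with 5 genes lower in all there and a median of -1.23 against -0.38, and 2 genes were higher and 3 lower without the 5 C libraries. The WNT agonists Rspo3 and Rspo2 read 1867, 1545 and 1699 against 308, 159 and 455 (log2 fold change 2.59 ± 0.39) and 71.3, 31.8 and 52.5 against 10.6, 20.8 and 7.51 (log2 fold change 1.96 ± 0.51).

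The signalling pathways did not move as a block, and their counts stand against 25.0% of all genes higher and 24.2% lower. Of 16 WNT response genes and antagonists 3 rose and 8 fell. Their median was -0.43 with every library and -0.92 with library A alone. Library A alone gave 2 of the rises and all 8 falls again, and 2 genes were higher and 7 lower without the 5 C libraries. Among the falls were the effectors Tcf7l1, at 478, 740.1 and 688 against 3602, 4117 and 2743 (log2 fold change -2.46 ± 0.19), and Lef1, at 159, 330.0 and 283 against 839.9, 987 and 634 (log2 fold change -1.71 ± 0.22). The secreted antagonist Sfrp1 read 11308, 9786 and 10693 against 28147, 31881 and 23084 (log2 fold change -1.38 ± 0.11). Of 17 BMP genes 1 rose and 6 fell, all of them called again with library A alone, where 10 were lower in all, and the counts were the same without the 5 C libraries. Id4, an inhibitor of differentiation factors in progenitors, read 2498, 2345 and 2453 against 15358, 17056 and 11502 (log2 fold change -2.57 ± 0.14, adjusted p = 5.3e-11), while Id2, of the same family, read 10695, 7740.1 and 9009 against 2248, 1413 and 3006 (log2 fold change 2.10 ± 0.18, adjusted p = 1.5e-08). This opposite movement of 2 ID genes was seen in every library, since no E15.5 library overlapped an E13.5 library for either. Such a lack of overlap was found in 63.9% of all genes. Of 18 FGF genes 7 rose and 5 fell. All 7 rises but only 3 of the falls were called again with library A alone, and 6 genes were higher and 4 lower without the 5 C libraries. The ligand Fgf10, which promotes maturation of radial glia, read 48.8, 112 and 83.5 against 2.88, 9.44 and 14.1 (log2 fold change 3.20 ± 0.47), and Etv4, an ETS factor induced by FGF, read 301, 296 and 262 against 50.9, 64.2 and 63.9 (log2 fold change 2.25 ± 0.27). Fgf15, a ligand of the early telencephalon, fell to 3.91, 0 and 6.88 at E15.5, against 15.4, 150.0 and 163 at E13.5. Of 14 retinoic acid genes 2 rose and 7 fell. Neither rise and 6 of the falls were called again with library A alone, where the median was -1.15 against -0.47 with every library, and 2 genes were higher and 6 lower without the 5 C libraries. The binding protein Crabp2 read 48.8, 59.8 and 49.0 against 1050.4, 1430.5 and 613 (log2 fold change -4.19 ± 0.37, adjusted p = 1.9e-08). Crabp2 also stands in the list of meningeal and fibroblast genes. Of 9 thyroid hormone genes 5 rose and 1 fell. Again called with library A alone were 4 rises and not the fall, and 4 genes were higher and 1 lower without the 5 C libraries. The transporter Slco1c1 read 397, 262 and 328 against 41.3, 13.2 and 61.0 (log2 fold change 3.28 ± 0.54), the activating deiodinase Dio2 read 166, 130.3 and 172 against 31.7, 23.6 and 20.7 (log2 fold change 2.59 ± 0.29), and the receptor Thra read 26141, 20617 and 23246 against 8701, 7615 and 11375 (log2 fold change 1.35 ± 0.13).

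Genes that mark cells born outside the cortical ventricular zone were read at both stages. Of 18 ventral forebrain and interneuron genes 7 rose, 3 fell and 8 did not pass (median 1.04). Of these, 6 rises and all 3 falls were called again with library A alone, and 6 genes were higher and 3 lower without the 5 C libraries. Their summed level was 11850.0 to 13706 at E15.5 and 6705 to 12179 at E13.5. Lhx6, a factor of interneurons from the medial ganglionic eminence, read 2320.2, 1869 and 2035 at E15.5 and 194, 81.1 and 521 at E13.5 (log2 fold change 3.35 ± 0.52, adjusted p = 2.0e-05). Npas1, of the same neurons, read 288, 222 and 245 against 30.8, 19.8 and 29.1 (log2 fold change 3.21 ± 0.33), and the neuropeptide Npy read 217, 188 and 169 against 25.9, 18.9 and 71.4 (log2 fold change 2.498 ± 0.54). Dlx2, the factor of ventral progenitors, and Gad2, a GABA-synthesizing enzyme, varied among the E13.5 libraries. Dlx2 read 399, 288 and 346 against 72.1, 687 and 591, and Gad2 688, 609 and 642 against 122, 401 and 702, so the groups overlapped and neither passed (adjusted p = 0.85 and 0.28). For Dlx2 the direction turned without E13.5 library A, to a log2 fold change of -0.90 with an adjusted p of 0.017. It was also negative with edgeR and DESeq2. Of 11 Cajal-Retzius genes 1 rose and 5 fell (median -0.47), all called again with library A alone, and the counts were the same without the 5 C libraries. Ebf2 read 53.7, 59.8 and 48.2 against 741, 1306 and 615 (log2 fold change -3.94 ± 0.25, adjusted p = 4.3e-10), and Ndnf was the exception at 614, 612 and 634 against 75.0, 203 and 211 (log2 fold change 2.06 ± 0.27). Reln, the secreted protein these cells are known for, and Trp73, their p53 family factor, did not pass, at 8274, 8733 and 8417 against 8773, 9835 and 8569 for Reln (adjusted p = 0.88) and a log2 fold change of -0.31 ± 0.46 for Trp73.

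Oligodendrocyte lineage genes were low, and 4 of 10 rose while 2 fell. These counts and those of the astroglial genes below stand against 25.0% of all genes higher and 24.2% lower. Library A alone gave 3 of the rises and 1 fall again, and 4 genes were higher and 1 lower without the 5 C libraries. Olig1 read 97.7, 53.1 and 78.3 at E15.5 and 1.92, 1.89 and 0.939 at E13.5, at most 2 reads per library at the earlier stage. Its partner Olig2 did not pass, at 56.7, 36.7 and 44.7 against 28.8, 59.4 and 53.5 (adjusted p = 0.99), and Pdgfra, the receptor of oligodendrocyte precursors and of fibroblasts, read 193, 1557 and 885 against 508, 901 and 353, lower in library A than in B and C. Gpr17, a receptor of maturing precursors, read 86.0, 78.2 and 70.6 against 2.88, 52.8 and 6.57 (log2 fold change 2.76 ± 0.67). Of 16 astroglial genes 3 rose and 5 fell, of which 2 rises and 3 falls were called again with library A alone, and 1 gene was higher and 3 lower without the 5 C libraries. Fgfr3, an FGF receptor of radial glia and astrocytes, read 2832, 3162 and 2928 against 8979, 11381 and 7465 (log2 fold change -1.62 ± 0.18), and Clu, a secreted chaperone of astrocytes, read 712, 667 and 678 against 266, 202 and 225 (log2 fold change 1.57 ± 0.16).

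The embryonic globins fell steeply. All 3 tested genes of the embryonic globin list fell, with every library, with library A alone and without the 5 C libraries, with a median of -7.16 over every library, and their summed level was 577 to 675 at E15.5 and 55290.0 to 123406 at E13.5. Hbb-y, a beta-type globin of primitive red cells, read 416, 497 and 476 at E15.5 and 66950.3, 92447 and 47299 at E13.5 (log2 fold change -7.16 ± 0.30, adjusted p = 6.8e-12). Hba-x, the zeta-type globin, read 158, 173 and 140.3 against 10732, 26031 and 7304 (log2 fold change -6.33 ± 0.42), and Hbb-bh1 read 2.93, 5.79 and 6.02 against 1046, 4927 and 687 (log2 fold change -8.06 ± 0.67), the lowest fold change among genes named by rank. E13.5 library B was the highest of its group for each. The adult globins varied. Hbb-bs and Hbb-bt, which are near-identical copies that may share reads, did not pass. Hbb-bs read 6630.3, 4779.6 and 5454 at E15.5 and 4889.6, 2309 and 4124 at E13.5 (adjusted p = 0.39). Hbb-bt read 2166, 1757 and 1965 against 3469, 2753 and 2765 (adjusted p = 0.074). Hba-a1 fell to 1125, 966 and 1078, against 3915, 4209 and 2659 at E13.5, and its near-identical copy Hba-a2 did not pass, at 608, 460.3 and 499 against 1485, 1319 and 1031 (adjusted p = 0.31), although its groups did not overlap. Of 12 adult globin and definitive erythroid genes 1 rose, 7 fell and 4 did not pass, and those that fell included genes of the red cell membrane. The rise and 4 of the falls were called again with library A alone, and 1 gene was higher and 5 lower without the 5 C libraries. Slc4a1, the anion exchanger band 3, read 78.2, 48.2 and 92.1 against 1377, 2816 and 863 (log2 fold change -4.39 ± 0.44), and Epb42, protein 4.2, read 0.977, 0.965 and 8.61 against 134, 285 and 79.8 (log2 fold change -5.45 ± 0.68).

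Endothelial genes fell, and the counts for microglial genes depended on the E15.5 libraries. Of 16 endothelial genes 10 fell and none rose (median -0.71), and 9 of these falls were called again with library A alone, while 7 genes were lower without the 5 C libraries. The summed level was 7543 to 10911 at E15.5 and 11685 to 18537 at E13.5. The VEGF receptors Kdr and Flt1 read 966, 1521 and 1144 against 2639, 3369.6 and 2221 (log2 fold change -1.18 ± 0.19) and 500.2, 536 and 509 against 899.5, 1820.2 and 767 (log2 fold change -1.07 ± 0.22), and Plvap, which forms the diaphragms of leaky vessels, read 47.9, 252 and 159 against 390.2, 612 and 313 (log2 fold change -1.75 ± 0.42). Of 18 microglia and macrophage genes 11 rose and none fell (median 0.68), against 25.0% of all genes higher. In library A alone 4 were higher and 3 lower, where 19.2% of all genes were higher and 18.4% lower, and without the 5 C libraries 6 were higher. The summed level was 2961 to 4707 at E15.5 and 2035 to 2461 at E13.5. P2ry12, a purine receptor of microglia, read 232, 166 and 188 against 83.6, 67.9 and 62.9 (log2 fold change 1.43 ± 0.20, adjusted p = 6.8e-06), highest in library A. Cx3cr1, the fractalkine receptor, read 354, 434 and 387 against 190.3, 155 and 184 (log2 fold change 1.15 ± 0.16).

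Meningeal genes depended on the E15.5 library. Of 19 tested, 2 rose, 7 fell and 10 did not pass with all libraries. Library A alone gave 16 falls and no rise, and without the 5 C libraries 2 were higher and 7 lower. The summed level was 8226, 146426 and 75096 at E15.5 and 50190.4, 72162 and 32145 at E13.5, so library A lay below every E13.5 library, and B and C lay above every one. Col1a1, fibrillar collagen of fibroblasts, read 51.8, 34888 and 16658 against 2858, 5715 and 1852, a log2 fold change of 0.0061 that turned to -5.88 with library A alone (adjusted p = 1.4e-05). Slc6a13, a GABA transporter of the meninges, read 0, 2.89 and 1.72 against 82.6, 99.1 and 93.0 (log2 fold change -5.39 ± 0.77), low in each E15.5 library including B. Foxc2, a forkhead factor of the meningeal mesenchyme, and Aldh1a2, which makes retinoic acid there, were low in the same way. Foxc2 read 2.93, 3.86 and 6.88 against 12.5, 43.4 and 17.8, and Aldh1a2 read 1.95, 6.75 and 3.44 against 55.7, 51.9 and 29.1.

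**Figure D3:**
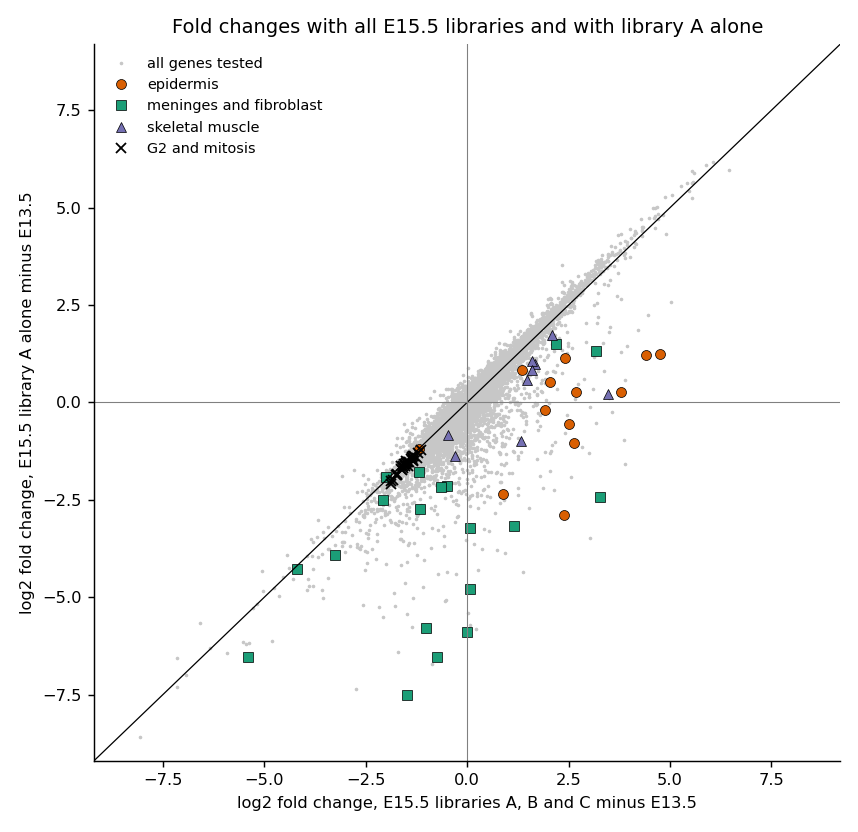
Log2 fold change of each tested gene with E15.5 libraries A, B and C on the x axis and with library A alone on the y axis, both against E13.5. The line marks equal values. Most epidermal, meningeal and muscle genes lie below the line, while mitotic genes lie close to it.

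Epidermal genes rose where B and C were included. Of 25 listed genes 13 were tested. Krt5 and Krt14 were not, since only E15.5 libraries B and C reached 10. Of the 13 tested, 10 rose, 1 fell and 2 did not pass (median 2.40), and 2 rises were called again with library A alone, while 7 genes were higher without the 5 C libraries. The summed level was 2275, 33865 and 17947 at E15.5 and 3492, 4396 and 3372 at E13.5, so A lay below the E13.5 libraries. Perp, a desmosomal protein, read 40.1, 2193 and 1129.8 against 13.5, 20.8 and 16.0 (log2 fold change 4.74 ± 0.84), and with A alone its log2 fold change was 1.23. Tfap2c, an AP-2 factor that cortical progenitors also express, was the epidermal list's fall, at 1308, 1358 and 1291 against 2810.0, 3674 and 2629.6. Of 9 skeletal muscle genes 6 rose, and 1 of these calls was made with library A alone, while 4 genes were higher without the 5 C libraries. In all, 107 genes were called although library A lay within the range of E13.5 or beyond it on the other side, 89 of them higher and 18 lower. The leading examples with a mean of at least 50 at E15.5 were Cdh1, the epithelial cadherin, at 0.977, 856 and 404 against 0.961, 17.9 and 4.70, Aspn, a matrix proteoglycan, at 1.95, 650.4 and 303 against 0, 39.6 and 3.76, and Sfn, an epithelial 14-3-3 protein, at 14.7, 892 and 427 against 15.4, 8.49 and 13.1. Anxa1, Hspb1 and Actc1 followed the same pattern. Egfl6 and Sox10 met the same rule only through E13.5 library B, and their library A lay above E13.5 libraries A and C. Egfl6 read 136, 2548 and 1318 against 31.7, 139 and 36.6, and Sox10 read 22.5, 73.3 and 60.2 against 0, 45.3 and 1.88. With library A alone none of these 8 passed, and the direction turned for Cdh1, Aspn and Anxa1. Their change with stage cannot be told apart from the tissue in libraries B and C. For Egfl6 and Sox10 it also cannot be told apart from the spread among the E13.5 libraries.

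The highest fold changes that held with library A mostly belonged to genes of low level at E13.5. Aox4, an aldehyde oxidase, read 208, 387 and 307 at E15.5 and 5.77, 1.89 and 0.939 at E13.5 (log2 fold change 6.44 ± 0.43, adjusted p = 6.1e-10), lower in library A than in B and C. Mc4r, the melanocortin receptor, read 2159.9, 1866 and 1984 against 24.03, 16.0 and 61.0 (log2 fold change 6.07 ± 0.68), and Sla, a Src-like adaptor protein, read 9471, 6960.4 and 8026 against 137, 65.1 and 286 (log2 fold change 5.87 ± 0.40). Jakmip3, a neuronal coiled-coil protein, read 447, 276 and 384 against 5.77, 5.66 and 8.45 (log2 fold change 5.59 ± 0.31), and Pla2g4e, a phospholipase, read 197, 169.8 and 194 against 2.88, 1.89 and 4.70 (log2 fold change 5.55 ± 0.27). Pnliprp1 read 61.5, 50.2 and 62.0 at E15.5 and Tusc5 read 93.8, 62.7 and 62.8, where each had at most 1 read in each E13.5 library. Dsg2, Cldn3, Chdh and Hs3st4 were also among the 12 highest. Aox4, Jakmip3, Pla2g4e, Pnliprp1, Tusc5, Dsg2, Cldn3 and Chdh reached 10 in no E13.5 library. The filter let them in through E15.5 alone, so they could hardly fail to differ and their p-values add little. Among the 12 lowest were Cldn11, a tight junction protein, at 2.93, 1.93 and 5.16 against 454, 709 and 389.8 (log2 fold change -6.92 ± 0.35), Hsd3b6, a steroid dehydrogenase, at 10.7, 1.93 and 6.02 against 594, 924 and 389.8 (log2 fold change -6.59 ± 0.43), and Cyp1b1, a cytochrome P450, at 4.88, 16.4 and 6.02 against 486, 452 and 324 (log2 fold change -5.54 ± 0.51). Uncx, a homeobox factor, read 0, 1.93 and 0.861 against 58.6, 133 and 47.0, and Kel, the Kell blood group protein, 5.86, 0.965 and 4.30 against 111, 338 and 69.5. The others were Hbb-bh1, Hbb-y, Hba-x, Robo3, Msx1, Epb42 and Slc6a13, given above. Cldn11, Uncx, Kel, Hbb-bh1, Msx1, Epb42 and Slc6a13 reached 10 in no E15.5 library, so they too could hardly fail to differ. Library A held few meningeal reads, with a summed level of 8226 against 32145 or more at E13.5. Holding with library A is thus no separate check on a meningeal gene such as Slc6a13. The part of blood and meninges in these falls was not tested.

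The change from E13.5 to E15.5 was set against that from E11.5 to E13.5 in WT. The 2 intervals share the E13.5 libraries, so a high or low E13.5 value moves both in opposite directions. Anything marked by the unexplained digit in the WT E13.5 column names would do the same. Of the E11.5 libraries, A, B and C read 42120.2, 13.9 and 10238 for Xist, so sex also differs within that group. The difference between the intervals passed in 2334 genes as higher and 3271 as lower, 34.8% of those tested, and in 2498 genes without the 5 C libraries. It was lower for 29 of 30 mitotic genes and for 25 of 32 replication genes, against 20.3% of all genes. In the earlier interval, where 58.2% of all genes passed (31.9% higher and 26.3% lower), 7 mitotic genes had risen and 10 fallen (median -0.13), and 20 replication genes had fallen (median -0.32). Kif18b, a mitotic kinesin, read 2472, 2231 and 2285 at E11.5, then 3068, 3199.8 and 2595 at E13.5, then 941, 1077 and 972 at E15.5, then 614, 593 and 505 in the libraries labelled E17.5. The later log2 fold change minus the earlier was -1.90 ± 0.15 (adjusted p = 1.5e-07). Ttyh1, a membrane protein of radial glia, read 9351, 9776 and 9543, then 13539, 12806 and 10939, 4535, 3851 and 4149 and 2433, 2468 and 2130.4. Magel2, an imprinted gene, read 287, 401 and 320.3, then 1878, 1621 and 1434, 346, 270.2 and 279.7 and 111, 107 and 131, so it was highest at E13.5. For 36 synaptic genes the difference was higher in 4 and lower in 9, where 14.5% of all genes were higher and 20.3% lower. Neither count was tested against these shares. In the later interval 28 of them rose, with a median of 1.16, and in the earlier 32 rose, with a median of 1.28. Pdzrn3, a ubiquitin ligase of the LNX family, read 374, 518 and 459.6, then 502, 561 and 796, 4528, 4218 and 4416 and 3996, 3585 and 3311, and was far higher at both later stages.

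**Figure D4:**
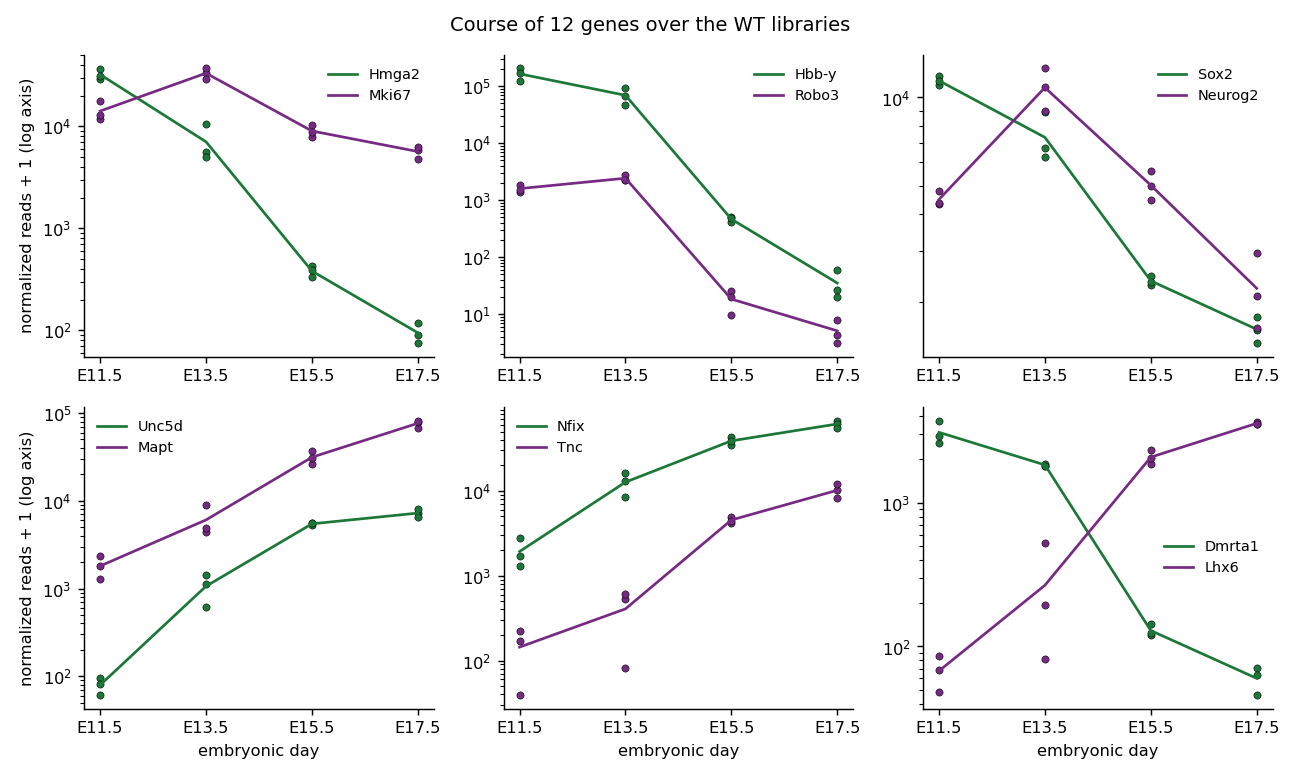
Normalized reads plus 1 on log axes for 12 genes in the WT libraries from E11.5 to E17.5, with points for libraries and lines through group means. Hmga2 and Hbb-y are lower at every later stage, Mki67 and Neurog2 are highest at E13.5, and Unc5d, Mapt, Nfix and Tnc are higher at each stage.

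The same interval in the cKO libraries gave a test of whether genotype altered the change. Of the groups compared, only WT E13.5 carries the unexplained digit in its column names. What that digit marks cannot be told apart from a difference between genotypes. Prdm16 itself read 2458, 2025 and 2345 in cKO at E15.5 and 1819, 1936 and 1784 in cKO at E13.5, against 2632, 2504 and 2600.4 in WT at E15.5 and 5329, 6369 and 4772 in WT at E13.5, so cKO and WT lay close at E15.5. The deleted stretch of the gene is not given in the labels, so these reads do not check them fully. Xist read 10.3, 48065 and 16386 in cKO at E15.5 and 24364, 10.8 and 13014 in cKO at E13.5, so these cKO groups mix sexes, unlike the WT groups of these stages. The change was higher in cKO than in WT for 766 genes (4.76%) and lower for 323 (2.01%), 6.76% of those tested. This count moved with the libraries used. It was 9 without the 5 C libraries (1836 at an unadjusted p under 0.05) and 24 with library A alone for WT E15.5, and 1517 with edgeR. With 1 WT library left out it lay between 240 (without WT E13.5 C) and 1689 (without WT E15.5 A). No cKO library was left out singly. In the postmitotic neuron list 5 of 16 genes and in the synapse list 10 of 36 rose by more in cKO, against 4.76% of all genes, and none of either did so without the 5 C libraries. Mitotic genes fell in both genotypes, 30 of 30 in each, with medians of -1.68 in cKO and -1.51 in WT, where 31.0% of all genes fell in cKO, 33.5% rose and 64.4% passed in all.

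Some genes passed for the difference between genotypes with every library, without the 5 C libraries and with library A alone. Robo3 read 473, 442 and 443 in cKO at E15.5 and 2917, 5088 and 4131 in cKO at E13.5, and its log2 fold change was -3.12 ± 0.32 in cKO and -7.15 ± 0.32 in WT (difference 4.02 ± 0.46, adjusted p = 9.4e-05). Ap3b2, a neuronal adaptor complex subunit, read 4649, 4376 and 4542 against 1008, 1188 and 1077 in cKO and 4923, 4067 and 4394 against 3648, 3679 and 3597 in WT (difference 1.77 ± 0.16, adjusted p = 7.0e-06). Here the genotypes were close at E15.5 and apart at E13.5. Col22a1, a collagen, fell to 35.9, 31.7 and 34.8 in cKO at E15.5, against 117, 119 and 133 in cKO at E13.5, while WT read 263, 183 and 239 against 160.5, 171 and 168 (difference -2.26 ± 0.21). Pxylp1, a phosphatase of proteoglycan synthesis, read 2677, 2819 and 2711 against 2534, 2179.9 and 2295 in cKO and 1021, 948 and 937 against 2176, 1822 and 2767 in WT (difference 1.43 ± 0.16). Ampd3, an AMP deaminase, read 36.9, 42.3 and 42.9 against 24.1, 47.9 and 41.5 in cKO, and in WT it rose, at 129, 160.2 and 147 against 20.2, 26.4 and 21.6 (difference -2.47 ± 0.28). Loxl1, a lysyl oxidase, read 30.8, 53.8 and 46.0 against 90.1, 196 and 177 in cKO and 450.4, 384 and 359 against 99.9, 104 and 70.4 in WT (difference -3.88 ± 0.47), and Megf10, a phagocytosis receptor, read 2735, 2445 and 2739 against 3115, 3045 and 3046 in cKO and 1969, 1853 and 1953 against 4604, 5356 and 4829 in WT (difference 1.13 ± 0.14).

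**Figure D5:**
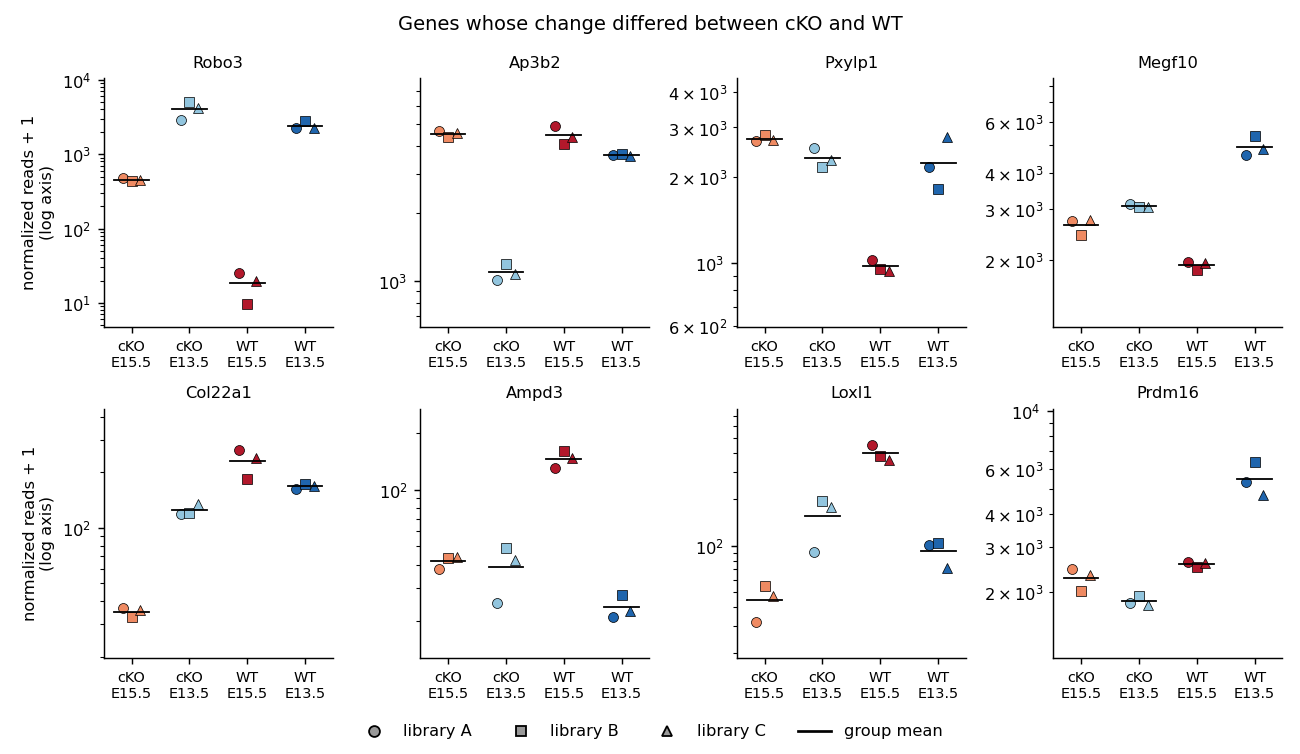
Normalized reads plus 1 on log axes for 8 genes in cKO and WT at E15.5 and E13.5, with points for libraries A, B and C and lines for group means. Robo3 at E15.5 is higher in cKO than in WT, and Col22a1, Ampd3 and Loxl1 at E15.5 are lower in cKO.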

How the data were processed

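The table deposited by the authors gives, for 22529 genes, a signal that is the read count over a size factor of the library (a normalized read count). The submitters' processing notes name the build mm10 (GRCm38) and the tools DESeq 1.22.1, HTSeq 0.5.3, STAR 2.5.0a and cutadapt 1.6. How reads that match several genes were treated, the annotation and the strand setting are not stated there, so overlapping, antisense and near-identical genes may share reads. Whole reads could be recovered from the deposited values (100% whole within 0.01), and depth over the 24 libraries was 25639836 to 38879931 reads. At a value of 10 a gene rests on few reads. Of the gene identifiers 22411 (99.5%) matched GENCODE M21, 25 symbols turned into dates were restored, and 13 symbols with 2 identifiers were kept apart.

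Log2(value + 1) was tested with limma 3.58.1 in R 4.3.3, with a variance trend, a mean for each of 8 groups and a spread estimated over all 24 libraries. P-values are two-sided, and calls use a Benjamini-Hochberg adjusted p under 0.05. Folds of low genes are understated on this scale. The test was also run on simulated data. The settings and outcome are not given here, so that run is no check of the p-values for these libraries. edgeR 4.0.16 and DESeq2 1.42.0 were run on the recovered reads as alternatives. The further alternatives were pseudocounts of 0.5 and 5, other filters, TMM factors, no trend, only the 2 groups, the letter as a replicate block, a minimum fold, and libraries left out.

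The rule for named genes took the 12 highest and 12 lowest fold changes among calls whose higher group averaged 50 or more, whose groups did not overlap and that library A alone also gave, up to 4 members of each list, the 8 largest calls resting on E15.5 libraries B and C, and the 8 smallest p-values of each difference contrast. Others were named after their values were seen, among them the cell type factors given although they did not pass, the genes whose promoters are printed, Krt5, Krt14, Col1a1, Prdm16, Xist and Ddx3y. Predicted genes (2538 of those tested) were counted and not named, and some genes that the rule takes are not reported here. The members, lists and rules were chosen with earlier results of these data known.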

Additional observations from a re-analysis of the deposited data

Results flagged for a closer look

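For the genes below the change from E13.5 to E15.5 was not the same in both genotypes by limma's test of the difference, cKO minus WT, on the log2 scale. The background is 4.76% of all genes with a higher and 2.01% with a lower change in cKO. The libraries of both intervals are separate, but the cKO groups mix sexes and 5 C libraries lie near sums of A and B. With those libraries left out 9 genes passed, and with library A alone for WT E15.5 24 passed (2307 at an unadjusted p under 0.05). Whether library makeup, or whatever the unexplained digit in the WT E13.5 column names marks, has a part in the differences was not tested.

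Among the genes that also passed in both of those fits and with edgeR, for Robo3 the difference was 4.02 (log2 fold change -3.12 in cKO, -7.15 in WT, adjusted p 9.4e-05) and for Ap3b2 it was 1.77 (cKO 2.05, WT 0.29, adjusted p 7e-06). For Col22a1 it was -2.26 (cKO -1.82, WT 0.44, adjusted p 8.1e-06) and for Pxylp1 it was 1.43 (cKO 0.23, WT -1.20, adjusted p 8.4e-05). For Ampd3 it was -2.47 (cKO 0.16, WT 2.63, adjusted p 9.4e-05) and for Loxl1 it was -3.88 (cKO -1.76, WT 2.12, adjusted p 0.00017). For Megf10 it was 1.13 (cKO -0.22, WT -1.35, adjusted p 0.00016).

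None of the following passed without the 5 C libraries. Among neuronal genes, for Dcx the difference was 1.48 (log2 fold change 2.54 in cKO, 1.07 in WT, adjusted p 0.0054) and for Myt1l it was 1.31 (cKO 3.62, WT 2.31, adjusted p 0.029). For Grin2b it was 2.99 (cKO 5.58, WT 2.58, adjusted p 0.035) and for Cntn2 it was 1.51 (cKO 3.48, WT 1.97, adjusted p 0.033). For Sox5 it was 1.28 (cKO 2.58, WT 1.30, adjusted p 0.016) and for Tbr1 it was 0.93 (cKO 1.29, WT 0.36, adjusted p 0.012). For Bcl11b it was 1.53 (cKO 1.87, WT 0.33, adjusted p 0.0033) and for Pou3f1 it was 1.31 (cKO 3.41, WT 2.10, adjusted p 0.024). For Pou3f2 it was 1.27 (cKO 2.65, WT 1.38, adjusted p 0.007) and for Celf5 it was 0.69 (cKO 2.04, WT 1.35, adjusted p 0.037). For Dpf3 it was 1.75 (cKO 3.99, WT 2.23, adjusted p 0.046) and for Ss18l1 it was 0.58 (cKO 1.72, WT 1.14, adjusted p 0.027). For Chd5 it was 1.66 (cKO 2.75, WT 1.08, adjusted p 0.023).

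Among genes of progenitors and of patterning and signalling, for Ccnd2 the difference was 0.79 (log2 fold change -1.43 in cKO, -2.22 in WT, adjusted p 0.034) and for Dmrta1 it was 1.53 (cKO -2.30, WT -3.83, adjusted p 0.0019). For Prdm16 it was 1.38 (cKO 0.30, WT -1.08, adjusted p 0.0014) and for Prdm12 it was 1.97 (cKO -0.75, WT -2.71, adjusted p 0.011). For Fgf15 it was 5.30 (cKO 0.84, WT -4.45, adjusted p 0.012) and for Lef1 it was -1.05 (cKO -2.76, WT -1.71, adjusted p 0.047). For Dio2 it was -1.67 (cKO 0.92, WT 2.59, adjusted p 0.022) and for Magel2 it was 1.40 (cKO -1.06, WT -2.46, adjusted p 0.0079). Fgf15 rests on few reads at E15.5 in WT.

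Among genes of other cells, for Ndnf the difference was 2.71 (log2 fold change 4.77 in cKO, 2.06 in WT, adjusted p 0.00085) and for Dlx2 it was 4.01 (cKO 4.15, WT 0.14, adjusted p 0.0064). For Gad2 it was 4.03 (cKO 5.01, WT 0.99, adjusted p 0.029) and for Olig2 it was 2.20 (cKO 2.20, WT 0.01, adjusted p 0.0028). For Hba-a1 it was 1.49 (cKO -0.25, WT -1.74, adjusted p 0.02) and for Cx3cr1 it was -0.79 (cKO 0.35, WT 1.15, adjusted p 0.046). For Cldn11 it was 2.72 (cKO -4.20, WT -6.92, adjusted p 0.0048) and for Perp it was -4.88 (cKO -0.14, WT 4.74, adjusted p 0.023). For Anxa1 it was -5.44 (cKO -1.87, WT 3.57, adjusted p 0.036). Perp and Anxa1 are among the genes whose WT value at E15.5 comes from libraries B and C. With library A alone their differences were -1.37 and -1.61.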

How the results depend on the processing

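The count of genes changed between E15.5 and E13.5, 7922 in all, stayed within 1.5 times of that value under other pseudocounts, filters, factors and tools, from 7202 with a mean of at least 50 to 8671 with only the 2 groups. It was 8057 with edgeR and 8227 with DESeq2, and the share of higher genes among those called was 50.9% and lay between 48.8% (TMM) and 54.5% (edgeR) under these settings. It was 5917 without the 5 C libraries, 6047 with library A alone, and 6757 to 7676 with 1 library left out. A minimum fold of 2 left 2832, of which 58.2% were higher. The difference between the cKO and WT changes, 1089 genes, fell to 9 without the 5 C libraries and to 24 with library A alone, and ranged from 240 to 1689 with 1 library left out. It was 1689 without E15.5 A, 281 without E15.5 B, 361 without E15.5 C and 240 without E13.5 C. Of these genes 70.3% had the higher change in cKO, against 52.3% with edgeR (1517 genes). The difference between the intervals, 5605 genes, was 2498 without the 5 C libraries and 3591 to 5258 with 1 library left out. It was 3694 without E13.5 A and 3591 without E13.5 B. The cause was not tested. Single libraries were left out only from WT E15.5 and WT E13.5, so these ranges do not cover the cKO or E11.5 libraries. Depth and 3 libraries a group, 1 of them perhaps a mixture, limit what low genes can show.

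Of 182 tested genes named, 165 were called, 155 of them again with library A alone and 154 again without the 5 C libraries. For 154 the call was the same under every alternative that could be run. The direction turned for Mycn (-0.00119 with TMM, -0.158 to 0.141 with 1 library left out), Nr6a1 (-0.0655 to 0.194), Igf2 (-1.23 to 0.118), Dlx2 (-0.361 with edgeR, -0.389 with DESeq2, -0.90 to 0.718) and Olig2 (-0.0133, -0.013 and -0.0428 with TMM, edgeR and DESeq2, -0.31 to 0.20). It also turned for Pdgfra (-1.49 with library A alone, -0.395 to 1.11 with 1 left out), Col1a1 (-0.0127 with TMM, -1.20 without the 5 C libraries, -5.88 with A alone, -1.73 to 2.95) and Ddx3y (0.0101 without the 5 C libraries, 0.00531 with edgeR, -0.135 to 0.0472), none of which passed with every library. With A alone it turned for Cdh1 (-1.59), Aspn (-0.969) and Anxa1 (-0.257), which had passed.

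The letters A, B and C do not pair the libraries of both stages. Same-letter correlations of the deviations from the group means were 0.087 for A, 0.417 for B and -0.214 for C. With the letter as a replicate block 7862 genes passed for the stage comparison, 1031 for the difference between genotypes and 5518 for the difference between intervals.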

Other observations

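The counts of the lists that follow stand against 25.0% of all genes higher and 24.2% lower. Of 30 genes of glycolysis and hypoxia 6 rose and 16 fell (median -0.73), and with library A alone 6 of the rises and 11 of the falls were called again, and without the 5 C libraries 12 were lower and 6 higher. Hk2, the hexokinase of proliferating cells, read 719, 739 and 701 at E15.5 and 2645, 3572 and 2171 at E13.5 (log2 fold change -1.93 ± 0.16, adjusted p = 6.3e-09). Among the rises were Ndrg1, a hypoxia-induced gene also active in differentiating cells, at 5016, 4099 and 4569 against 522, 236 and 1206 (log2 fold change 3.10 ± 0.41), and Eno2, the neuronal enolase, at 1606, 1221 and 1442 against 420.0, 442 and 546 (log2 fold change 1.599 ± 0.15). Of 17 serine and one-carbon genes 2 rose and 13 fell (median -0.98), and all of these calls were made with library A alone, while 2 were higher and 12 lower without the 5 C libraries. Gldc, the glycine cleavage decarboxylase, read 1248, 1279 and 1288 against 4328, 4678 and 3730.3 (log2 fold change -1.73 ± 0.12). Of 21 cholesterol synthesis genes 1 rose and 15 fell (median -0.40), of which the rise and 7 falls were called with library A alone, and without the 5 C libraries 10 were lower and 1 higher.

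Of 19 imprinted growth genes 6 rose and 7 fell (median -0.22). With library A alone 3 of the rises and 5 of the falls were called again (median -0.76), and without the 5 C libraries 6 were higher and 5 lower. Grb10, an adaptor that restrains growth, read 7742, 9279 and 8453 at E15.5 and 28207, 29161 and 22261 at E13.5 (log2 fold change -1.64 ± 0.12, adjusted p = 1.2e-09), and Peg10 read 1299, 1596 and 1467 against 3152, 4763 and 3819 (log2 fold change -1.41 ± 0.13). Meg3, a maternally expressed non-coding RNA, read 13616, 15738 and 14390.2 against 3235, 5617 and 4694 (log2 fold change 1.73 ± 0.30). Igf2 did not pass with all libraries, at 1347, 8766 and 4912 against 6089.9, 9700.2 and 3739, and fell with library A alone (log2 fold change -2.16, adjusted p = 3.2e-04). Of 7 tested genes of the mitochondrial genome 6 rose, and 2 of these rises were called with library A alone, while 4 were higher without the 5 C libraries. Of the nuclear respiratory chain 6 of 79 genes were higher and 1 was lower (median -0.03), where 2 of the rises and not the fall were called again with library A alone, and without the 5 C libraries 1 passed in each direction. Of 80 cytosolic ribosomal protein genes none was higher and 13 were lower (median -0.20), 3 of them also with library A alone, while the fit without the 5 C libraries gave 3. Of 16 stress and immediate early genes 2 rose and 3 fell, and 1 of the rises and all 3 falls were called again with library A alone, while none was higher and 3 were lower without the 5 C libraries. Jun, an immediate early factor, read 2429.6, 2257 and 2359.5 against 5298, 6675 and 4468 (log2 fold change -1.20 ± 0.23), and Ddit3, a factor of the unfolded protein response, read 479.7, 412 and 493 against 339, 353 and 363 (log2 fold change 0.39 ± 0.10). Of 14 PRDM family genes 2 rose and 7 fell, of which 2 rises and 6 falls were called again with library A alone, and 1 was higher and 7 lower without the 5 C libraries. Prdm16 read 2632, 2504 and 2600.4 against 5329, 6369 and 4772 (log2 fold change -1.08 ± 0.14), and Prdm12, a factor of sensory neurons, read 36.1, 29.9 and 18.1 against 137, 169.8 and 259 (log2 fold change -2.71 ± 0.29). Of 7 cartilage and bone genes 1 rose and 2 fell, also with library A alone and with the same counts without the 5 C libraries. Of 2 tested choroid plexus genes none passed with limma or edgeR or had an unadjusted limma p under 0.05 with every library, while 1 was lower with library A alone, where their median was -1.53 against -0.09. Of 3 tested ependymal genes 2 fell, 1 of them again with library A alone, and 2 were lower without the 5 C libraries.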
